A study of Mus musculus with 21 samples.

Results

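The genes described here are the 4 Notch receptors (Notch1, Notch2, Notch3 and Notch4), the 5 canonical Notch ligands (Dll1, Dll3, Dll4, Jag1 and Jag2) and Lfng, which sugar-modifies the receptors. They were taken by symbol, through their Ensembl identifiers, and all 10 were found among the 55487 gene identifiers of the count files. RNA was sequenced from mouse embryonic stem cell lines grown as embryoid bodies to day 4 and sorted for 2 surface receptors, FLK1 (Kdr) and PDGFRalpha. DP cells carried both receptors, and SP cells carried FLK1 without PDGFRalpha. There were 7 groups of 3 libraries each, 21 in all. In the T-GFP;Etv2-tdTomato line each gate was divided again into cells positive and negative for tdTomato, a fluorescent reporter of the endothelial and blood transcription factor Etv2. This gave SP Etv2+ and SP Etv2-, and DP Etv2+ and DP Etv2-, 12 libraries from 1 reporter line. A further 9 libraries came from SP cells of a line with doxycycline-inducible Etv2 (iEtv2), treated with 2 µg/ml doxycycline from day 2.5, and from SP and DP cells of the wild-type A2lox.Cre line (WT). The labels list doxycycline for iEtv2 alone, so induced Etv2, the drug and the line cannot be told apart in that comparison. They do not say whether replicate libraries came from separate cultures, so the p-values below measure the spread between these libraries, which may be technical.

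Notch receptors are single-pass membrane proteins cut after a ligand on a neighbouring cell binds them. The freed intracellular part enters the nucleus, binds the DNA-binding protein RBPJ and the Mastermind co-activators, and switches on Hes and Hey genes. In presomitic mesoderm, the tissue that is cut into somites, Dll1 is the main activating ligand, Dll3 acts within the cell and does not activate receptors on neighbours, and Lfng is a Fringe glycosyltransferase of the segmentation clock. In blood vessels, Dll4 is a ligand of arterial and sprouting endothelium, Notch4 is a receptor of endothelium, and Jag1 is made by both endothelium and smooth muscle. For what follows Dll1, Dll3 and Lfng are called the presomitic members and Dll4, Notch4 and Jag1 the vascular members. Jag2 and Notch1 to Notch3 work in many tissues.

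Library totals were 22406153 to 32777143 counts over genes. Levels are CPM, counts brought to a common library total, after TMM, the edgeR scaling that lets libraries of different make-up be compared. A count of 3 was worth 0.0915 to 0.134 CPM. Changes are log2 fold changes with standard errors from edgeR's quasi-likelihood test, and "called" means that p, adjusted by Benjamini-Hochberg over every gene in the fit, was below 0.05. The reporter-line libraries and the WT and iEtv2 libraries were scaled and tested apart, so levels are set side by side only within each set. Etv2 and Pdgfra followed the labels. Etv2 averaged 89.0 ± 17.0 CPM in SP Etv2+ and 26.6 ± 1.04 CPM in SP Etv2- (SD, n = 3), and 58.4 ± 10.3 CPM in DP Etv2+ and 20.2 ± 2.61 CPM in DP Etv2-. In iEtv2 SP it averaged 239 ± 10.2 CPM, against 93.6 ± 22.4 CPM in WT SP, and the counts do not separate the induced copy from the gene's own. Pdgfra averaged 37.5 CPM in SP Etv2+ and 51.7 CPM in SP Etv2-, below the 149.8 CPM of DP Etv2+ and the 253 CPM of DP Etv2-. In the second set it averaged 6.74 CPM in iEtv2 SP, 40.0 CPM in WT SP and 318 CPM in WT DP. Kdr averaged 604 CPM in SP Etv2+, 526 CPM in SP Etv2-, 437 CPM in DP Etv2+ and 587 CPM in DP Etv2-. Kdr and Pdgfra were both called lower with the reporter in DP. Kdr averaged 858 CPM in iEtv2 SP, 892 CPM in WT SP and 869 CPM in WT DP. SP Etv2+ replicate 3 and SP Etv2- replicate 2 had the highest shares of ribosomal RNA in the reporter line, and calls that depend on them are named below. Because whole sorted populations were sequenced, a lower level may be fewer cells of a type or less RNA per cell, and these cannot be told apart.

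All 3 presomitic members were low in reporter-positive cells and in SP cells, and highest in DP Etv2-. Dll1 (ENSMUSG00000014773, chr17:15367354-15376872 of mm10, minus strand) had 0.553, 0.705 and 0.891 CPM in the SP Etv2+ libraries, against 6.96, 8.58 and 4.54 CPM in SP Etv2-. In DP Etv2+ it had 2.57, 3.41 and 1.61 CPM, against 34.9, 34.1 and 28 CPM in DP Etv2-. The 4 groups followed one another as DP Etv2-, SP Etv2-, DP Etv2+ and SP Etv2+, and no 2 neighbours in that order overlapped. Dll1 fell with the reporter in both gates, by 3.69 ± 0.25 on the log2 scale in DP (12.9-fold lower, edgeR adjusted p = 1.24e-06) and by 3.21 ± 0.31 in SP (9.26-fold lower, edgeR adjusted p = 3.28e-05). The difference between these changes was 0.48 (interaction, edgeR adjusted p = 0.598) and was not called. SP cells were also lower than DP cells, by 2.27 ± 0.22 without the reporter (edgeR adjusted p = 0.000126) and by 1.79 ± 0.35 with it (edgeR adjusted p = 0.00585). Of the exonic bases of Dll1, 20.5% are shared with an antisense transcript, A930024N18Rik, in the GENCODE M21 annotation. The strand setting of the counting is not given in the sources used here, so reads of the pair cannot be told apart. The same limit holds for Dll4, which shares 5.56% of its exonic bases with an antisense transcript, Gm14207. That transcript reached 0.428 CPM before scaling. Notch1 and Notch3 share at most 7.50% with any single antisense transcript.

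Dll3 (ENSMUSG00000003436, chr7:28293553-28302238, minus strand) had 4.75, 5.93 and 3.53 CPM in SP Etv2+, against 22.4, 31.4 and 17.3 CPM in SP Etv2-. The DP Etv2+ libraries held 16.4, 17.6 and 7.10 CPM, against 129.9, 118 and 77.1 CPM in DP Etv2-. DP Etv2- lay above all other libraries and SP Etv2+ below them, whereas SP Etv2- and DP Etv2+ overlapped. The fall with the reporter was 2.99 ± 0.31 on the log2 scale in DP (7.95-fold, edgeR adjusted p = 2.48e-05) and 2.33 ± 0.35 in SP (5.02-fold, edgeR adjusted p = 0.000545). Its interaction of 0.66 was not called (edgeR adjusted p = 0.469). In SP over DP cells it fell by 2.19 ± 0.30 without the reporter (edgeR adjusted p = 0.000808). With the reporter it fell by 1.53 ± 0.35 (edgeR adjusted p = 0.014), a call that was lost without SP Etv2+ replicate 3 (adjusted p = 0.0583) and without both libraries of high ribosomal RNA (0.0555).

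Lfng (ENSMUSG00000029570, chr5:140607320-140615545, plus strand) stood apart from the ligands in the SP gate. Its levels were 1.70, 1.89 and 1.37 CPM in SP Etv2+, against 2.73, 2.83 and 1.40 CPM in SP Etv2-, and the 2 groups overlapped. In the DP gate they were 2.39, 2.62 and 1.46 CPM in Etv2+ cells, against 14.0, 10.6 and 8.18 CPM in Etv2- cells, which did not overlap. Lfng fell by 2.35 ± 0.27 with the reporter in DP (5.08-fold, edgeR adjusted p = 5.17e-05). In SP the change was -0.49 ± 0.31 (edgeR adjusted p = 0.27) and was not called. The difference between the gates was 1.85 ± 0.42 (interaction, edgeR adjusted p = 0.0336). Leaving out 1 library at a time gave adjusted p between 0.011 and 0.0814. The call held without DP Etv2- replicate 3, DP Etv2+ replicate 1 or 2, or SP Etv2- replicate 2, and was lost without any other of the 12, and without both libraries of high ribosomal RNA (0.0595).

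**Figure D1:**
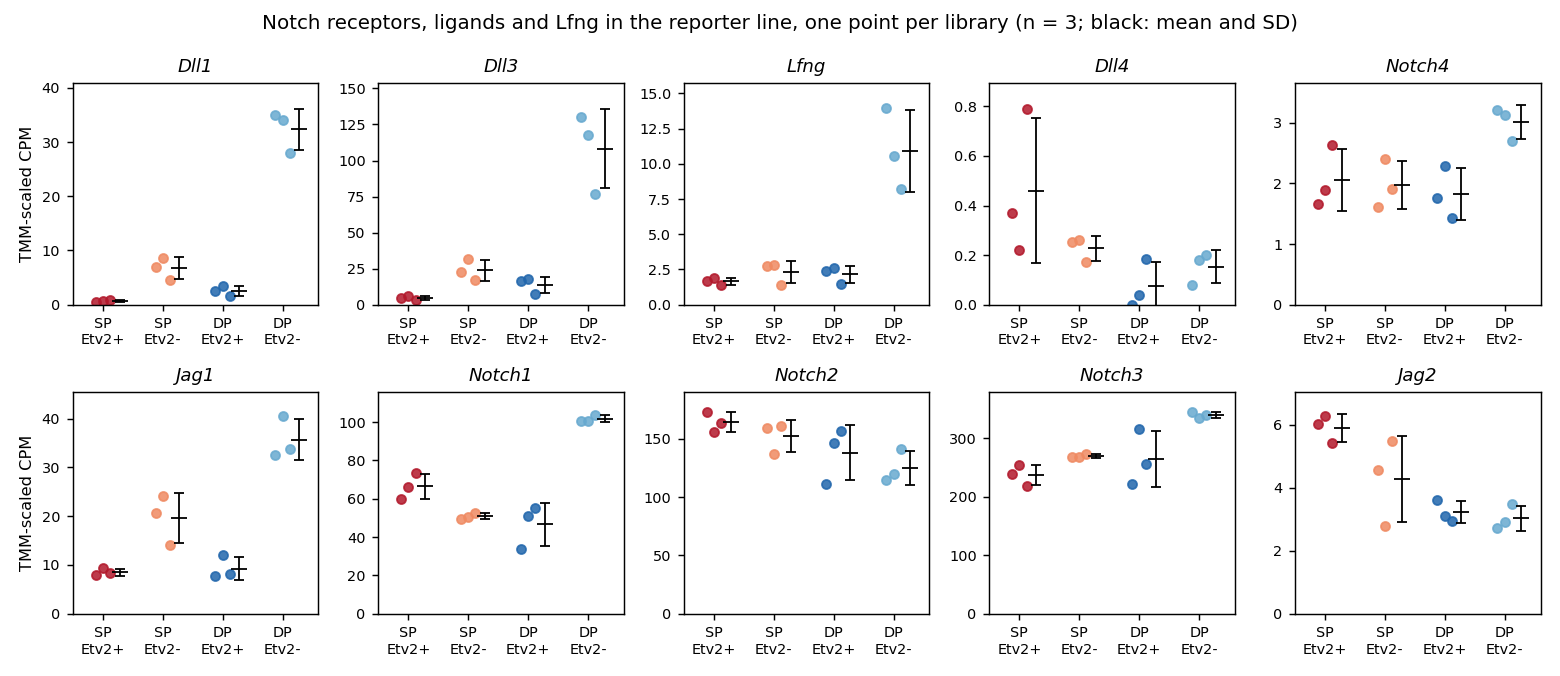
TMM-scaled CPM of the 10 genes in the reporter line, 1 point per library and a black bar for the mean and SD of 3 libraries, with SD bars cut at 0; the groups run from SP Etv2+ to DP Etv2-, and each panel has its own axis from 0. Dll1, Dll3, Lfng and Jag1 are highest in DP Etv2-, while Dll4 is at most 0.788 CPM in any library.

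The vascular members did not move as one group in the reporter line. Dll4 (ENSMUSG00000027314, chr2:119325784-119335962, plus strand) was close to the limit of detection. It had 10, 6 and 23 counts in SP Etv2+, 7, 8 and 5 counts in SP Etv2-, 0, 1 and 6 counts in DP Etv2+, and 2, 6 and 6 counts in DP Etv2-. Even the highest library, SP Etv2+ replicate 3, came to 0.788 CPM, and the gene did not pass the low-count filter there. It is therefore the 1 member of 10 with no main test in that line. Fitted without the filter, Dll4 was called in SP over DP cells with the reporter (2.46, edgeR adjusted p = 0.000687), and in none of the other 4 reporter-line comparisons. That value rests on few counts. In fits where it passed the filter after 1 library was left out, it was not called without DP Etv2+ replicate 1 (1.93, edgeR adjusted p = 0.0888) or 2 (2.17, 0.0875). It was called without DP Etv2+ replicate 3 (4.36, 0.0156) and without SP Etv2+ replicate 2 (2.79, 0.0286). In such fits Dll4 passed the filter through SP Etv2+ replicates 1 and 3 (10 and 23 counts), in the group where it was highest. The calls of SP over DP are therefore descriptions and lend no support to a difference.

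Notch4 (ENSMUSG00000015468, chr17:34564268-34588503, plus strand) was also scarce, and it was not called higher in reporter-positive cells of either gate. Its levels were 1.66, 1.89 and 2.64 CPM in SP Etv2+, and 1.61, 2.41 and 1.91 CPM in SP Etv2-. In the other gate they were 1.77, 2.29 and 1.43 CPM in DP Etv2+, and 3.21, 3.13 and 2.69 CPM in DP Etv2-. The DP Etv2- libraries were above all 9 others, and the remaining groups overlapped. Notch4 fell by 0.73 ± 0.22 on the log2 scale with the reporter in DP (1.66-fold, edgeR adjusted p = 0.023). That call was lost without DP Etv2+ replicate 1 (adjusted p = 0.0613) or 3 (0.0938), and without DP Etv2- replicate 1 (0.0675) or 2 (0.0663). In SP its change was 0.062 ± 0.22 (edgeR adjusted p = 0.871). In SP over DP without the reporter it was -0.60 ± 0.22 and was not called (edgeR adjusted p = 0.0977). Without both libraries of high ribosomal RNA that change was called (-0.77, edgeR adjusted p = 0.04997).

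Jag1 (ENSMUSG00000027276, chr2:137081456-137116644, minus strand), placed here with the vascular members, ran over the groups much as Dll1 did. It had 7.89, 9.31 and 8.29 CPM in SP Etv2+, against 20.6, 24.1 and 14.1 CPM in SP Etv2-. The DP Etv2+ libraries had 7.69, 12 and 8.06 CPM, against 32.6, 40.4 and 33.9 CPM in DP Etv2-. DP Etv2- was highest and SP Etv2- next, without overlap, and the 2 reporter-positive groups overlapped. Jag1 fell by 1.95 ± 0.19 with the reporter in DP (3.86-fold, edgeR adjusted p = 1.63e-05) and by 1.21 ± 0.20 in SP (2.31-fold, edgeR adjusted p = 0.000991). It was lower in SP than in DP without the reporter (-0.86 ± 0.18, edgeR adjusted p = 0.0104). Omitting DP Etv2- replicate 2 ended that call (0.0575). Across the 12 reporter-line libraries its log2 level had a Pearson r of 0.96 with Dll1 and 0.93 with Dll3, and -0.22 with Dll4. These libraries share 4 groups, so the r values describe the group pattern.

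The other ligand, Jag2 (ENSMUSG00000002799, chr12:112907819-112929776, minus strand), was higher in SP than in DP among reporter-positive cells. It had 6.01, 6.27 and 5.41 CPM in SP Etv2+, 4.55, 2.80 and 5.49 CPM in SP Etv2-, 3.60, 3.11 and 2.94 CPM in DP Etv2+, and 2.70, 2.92 and 3.47 CPM in DP Etv2-. Each group overlapped its neighbour in that order. The 2 reporter-positive groups did not overlap, and among them Jag2 was higher in SP than in DP by 0.87 ± 0.20 (1.83-fold, edgeR adjusted p = 0.0141). It did not pass the test with the reporter in DP (0.082 ± 0.21, edgeR adjusted p = 0.81) or in SP (0.46 ± 0.20, edgeR adjusted p = 0.103). In SP over DP without the reporter its change was 0.49 ± 0.21 and was not called (edgeR adjusted p = 0.157). That change was called without SP Etv2- replicate 2, a library of high ribosomal RNA (0.73, edgeR adjusted p = 0.0159). It was also called without both such libraries (0.73, edgeR adjusted p = 0.0172).

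Among the broadly used receptors, Notch1 (ENSMUSG00000026923, chr2:26457903-26516663, minus strand) had a reporter effect that differed between the gates. It had 33.7, 51.1 and 55.0 CPM in DP Etv2+, against 101, 101 and 104 CPM in DP Etv2-, with no overlap. In SP Etv2+ it had 59.9, 65.9 and 73.4 CPM, all above the 49.2, 50.7 and 52.6 CPM of SP Etv2-. Notch1 fell by 1.12 ± 0.14 on the log2 scale with the reporter in DP (2.18-fold, edgeR adjusted p = 6.38e-05). In SP its change was 0.39 ± 0.13 and missed the threshold (edgeR adjusted p = 0.0515). Same-numbered libraries of these groups deviated together, and with the replicate number as a block it was called at 0.38 (edgeR adjusted p = 0.0153). It was also called with DESeq2 (DESeq2 adjusted p = 0.0265), with the compared groups alone (edgeR adjusted p = 0.00719) and with no filter (edgeR adjusted p = 5.0e-05). It was called in none of the 6 fits that left out an SP library (edgeR adjusted p 0.0597 to 0.165). The difference between the gates was 1.51 ± 0.19 (interaction, edgeR adjusted p = 0.00967), and it was called under all 20 alternatives, with adjusted p up to 0.0371.

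The gate contrast of Notch1 turned with it. SP cells were lower than DP cells by 1.00 ± 0.13 without the reporter (edgeR adjusted p = 0.000776) and higher by 0.51 ± 0.13 with it (edgeR adjusted p = 0.0259). The second of these calls was lost without SP Etv2+ replicate 2 (adjusted p = 0.0699), without SP Etv2+ replicate 3 (0.0935), without both libraries of high ribosomal RNA (0.12) and in a fit of the compared groups alone (0.0973).

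Notch3 and Notch2 showed small changes. Notch3 (ENSMUSG00000038146, chr17:32120820-32166852, minus strand), the receptor of vascular smooth muscle in the adult, had 239, 253 and 218 CPM in SP Etv2+, and 267, 268 and 274 CPM in SP Etv2-. It had 222, 315 and 256 CPM in DP Etv2+, against 345, 334 and 339 CPM in DP Etv2-, and the DP groups did not overlap. The change with the reporter was -0.36 ± 0.10 in DP (edgeR adjusted p = 0.0139), lost in a fit of the compared groups alone (0.0524), and -0.19 ± 0.10 in SP (edgeR adjusted p = 0.182). Notch2 (ENSMUSG00000027878, chr3:98013527-98150361, plus strand) was not called in any of the 5 reporter-line comparisons. Its group means ran from 164 ± 8.66 CPM in SP Etv2+ through 152 ± 13.7 CPM in SP Etv2- and 138 ± 24.0 CPM in DP Etv2+ to 125 ± 14.4 CPM in DP Etv2- (SD, n = 3), each overlapping the next.

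Counted together, 7 of the 9 members tested fell with the reporter in DP and none rose, where 30.7% of the 17690 genes tested were called, 16% higher and 14.7% lower. The exceptions were Notch2 and Jag2. In SP, 3 of 9 fell (Dll1, Dll3 and Jag1) and none rose, against 25.5% of genes called, 13.1% higher and 12.4% lower. The median change of the presomitic members was -2.99 in DP and -2.33 in SP, and that of the 2 vascular members tested -1.34 in DP and -0.57 in SP, where the medians of all genes were 0.0042 in DP and -0.013 in SP. Between gates without the reporter, 6 of 9 were lower in SP and none higher, against 10.9% of genes called, 6.1% higher and 4.84% lower. Notch3 was 1 of the 6 (-0.33 ± 0.10, edgeR adjusted p = 0.0466), and that call was lost in each of the 6 fits that left out a library (adjusted p 0.0831 to 0.143). The same call was lost without both libraries of high ribosomal RNA (edgeR adjusted p = 0.108). Between gates with the reporter, Dll1 and Dll3 were lower in SP, and Notch1 and Jag2 higher, 4 of 9 against 13.9% of genes called, 6.95% higher and 6.94% lower. The interaction was called for Notch1 and Lfng, 2 of 9 and both positive, against 3.97% of genes called, 1.52% positive and 2.45% negative. With the replicate block Jag1 was called as well (0.77, edgeR adjusted p = 0.0182). The comparisons of a gate share groups with those of the reporter, so these counts are not independent of one another.

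**Figure D2:**
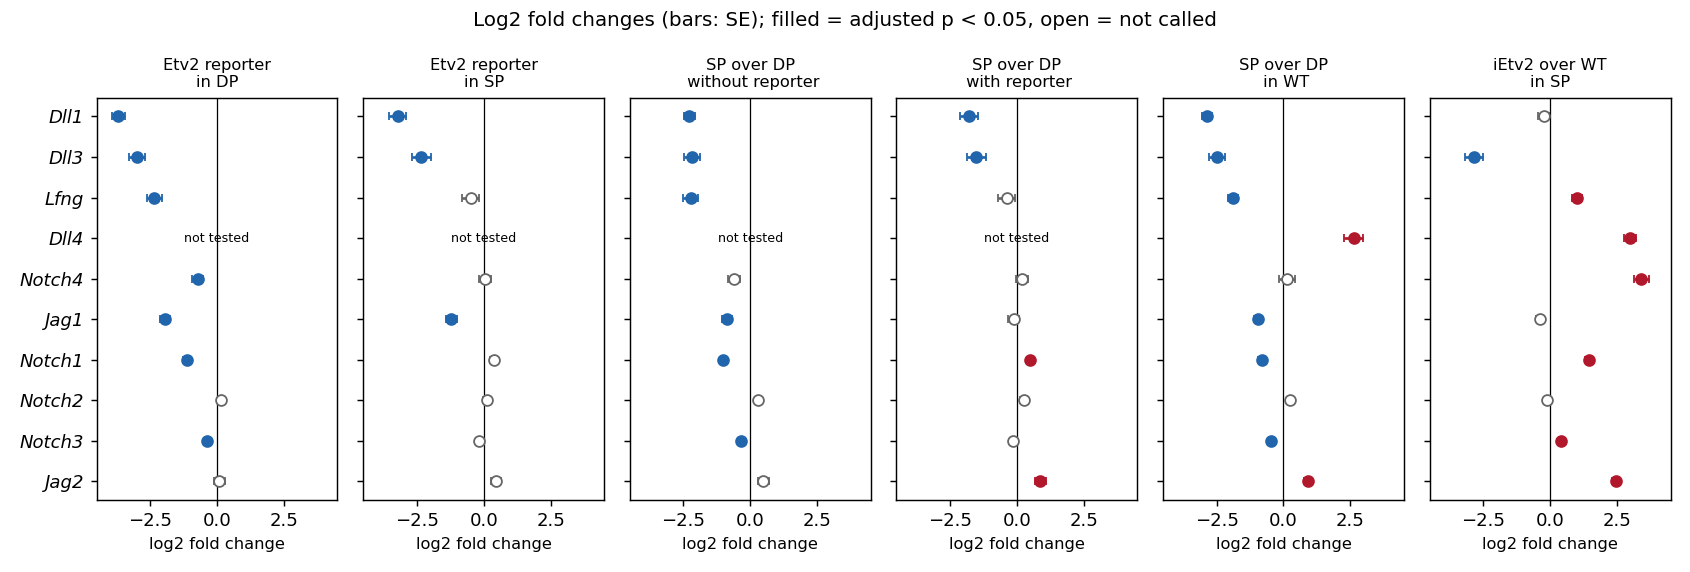
Log2 fold change of each member with its standard error (bars) in 6 comparisons (Etv2 reporter stands for Etv2+ over Etv2-), with filled symbols for called genes and open symbols for the rest; 0 is no difference and Dll4 was not tested in the reporter line. Dll1, Dll3 and Lfng lie left of 0 in the SP over DP panels, and Dll4, Notch4 and Jag2 lie right of it in iEtv2 over WT.

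In the second set of libraries Dll1, Dll3, Lfng, Jag1, Notch1 and Notch3 were called lower in WT SP than in WT DP, and Dll4 and Jag2 higher. Dll1 had 5.42, 9.51 and 6.16 CPM in WT SP, against 51.4, 56.0 and 46.6 CPM in WT DP (-2.87 ± 0.19, edgeR adjusted p = 1.32e-05). Dll3 had 19.9, 33.1 and 31.6 CPM in WT SP, against 155, 169.7 and 150.0 CPM in WT DP (-2.49 ± 0.29, edgeR adjusted p = 0.000316). Lfng had 4.32, 6.92 and 6.62 CPM in WT SP, against 20.3, 22.9 and 22.7 CPM in WT DP (-1.88 ± 0.19, edgeR adjusted p = 0.000126). For these 3 genes every WT SP library lay below every WT DP library. Jag1 had 26.4, 36.3 and 27.0 CPM in WT SP, against 61.3, 64.6 and 46.9 CPM in WT DP (-0.95 ± 0.15, edgeR adjusted p = 0.00151). Notch1 fell by 0.80 ± 0.14 (edgeR adjusted p = 0.00353) and Notch3 by 0.48 ± 0.10 (edgeR adjusted p = 0.0102).

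The members higher in WT SP were Dll4 and Jag2. Dll4 had 24, 26 and 29 counts in WT SP, against 4, 3 and 5 counts in WT DP, or 1.05 ± 0.155 CPM and 0.168 ± 0.0515 CPM (SD, n = 3). The difference was 2.62 ± 0.35 (6.16-fold, edgeR adjusted p = 0.000609), from counts that are low in both gates. Jag2 had 10.3, 11.2 and 7.94 CPM in WT SP, against 5.07, 5.72 and 4.87 CPM in WT DP (0.91 ± 0.15, edgeR adjusted p = 0.00229). Notch4, the vascular receptor, had 6.99, 6.01 and 5.90 CPM in WT SP, against 6.14, 6.99 and 4.06 CPM in WT DP, and the gates overlapped (0.13 ± 0.29, edgeR adjusted p = 0.826). In all, 8 of the 10 members were called between the WT gates, where 15.8% of the 16288 genes tested were called, 9.08% higher and 6.76% lower.

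With induced Etv2 the vascular members Notch4 and Dll4 rose, together with Jag2, Notch1, Notch3 and Lfng, and Dll3 fell. Notch4 had 39.8, 85.5 and 75.2 CPM in iEtv2 SP, against 6.99, 6.01 and 5.90 CPM in WT SP. Every iEtv2 library was well above the WT libraries, replicate 1 less so than the others, and the difference was 3.41 ± 0.28 (10.6-fold, edgeR adjusted p = 3.33e-06). Dll4 had 168, 238 and 283 counts in iEtv2 SP, against 24, 26 and 29 counts in WT SP, or 8.36 ± 1.68 CPM and 1.05 ± 0.155 CPM (2.99 ± 0.22, 7.93-fold, edgeR adjusted p = 1.56e-06). Jag2 had 61.8, 51.9 and 48.8 CPM in iEtv2 SP, against 10.3, 11.2 and 7.94 CPM in WT SP (2.46 ± 0.14, 5.51-fold, edgeR adjusted p = 2.95e-07). For Dll4 and Jag2 the 3 groups were fully separated in the order iEtv2 SP, WT SP and WT DP.

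Notch1 had 198, 219.9 and 220.2 CPM in iEtv2 SP, against 86.3, 84.3 and 62.0 CPM in WT SP (1.46 ± 0.14, 2.74-fold, edgeR adjusted p = 1.29e-05). Those levels were also above the 109.5, 153 and 143 CPM of WT DP. Notch3 had 359, 358 and 327 CPM in iEtv2 SP, against 251, 291 and 255 CPM in WT SP (0.39 ± 0.10, 1.31-fold, edgeR adjusted p = 0.00897), and it overlapped WT DP. Notch2 averaged 149 ± 3.53 CPM in iEtv2 SP and 162 ± 20.8 CPM in WT SP (SD, n = 3) and was not called (-0.12 ± 0.12, edgeR adjusted p = 0.464).

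The presomitic members parted from one another under induction. Dll3 had 1.76, 6.75 and 3.38 CPM in iEtv2 SP, against 19.9, 33.1 and 31.6 CPM in WT SP, and it fell by 2.83 ± 0.34 (7.12-fold, edgeR adjusted p = 5.09e-05). Dll1 had 7.02, 5.76 and 5.14 CPM in iEtv2 SP, against 5.42, 9.51 and 6.16 CPM in WT SP, overlapping and not called (-0.24 ± 0.20, edgeR adjusted p = 0.343). Lfng had 14.2, 9.34 and 12 CPM in iEtv2 SP, against 4.32, 6.92 and 6.62 CPM in WT SP. It rose by 0.99 ± 0.19 (1.99-fold, edgeR adjusted p = 0.00136), to a level still below the 20.3, 22.9 and 22.7 CPM of WT DP. Jag1 had 24.8, 22.8 and 21.7 CPM in iEtv2 SP, all below the 26.4, 36.3 and 27.0 CPM of WT SP, but the change of -0.37 ± 0.15 missed the threshold (edgeR adjusted p = 0.0546). Thus 6 of the 10 members rose and 1 fell, in a comparison in which 50.8% of the 16288 genes tested were called, 26.4% higher and 24.4% lower. Being called there does not by itself set these genes apart.

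**Figure D3:**
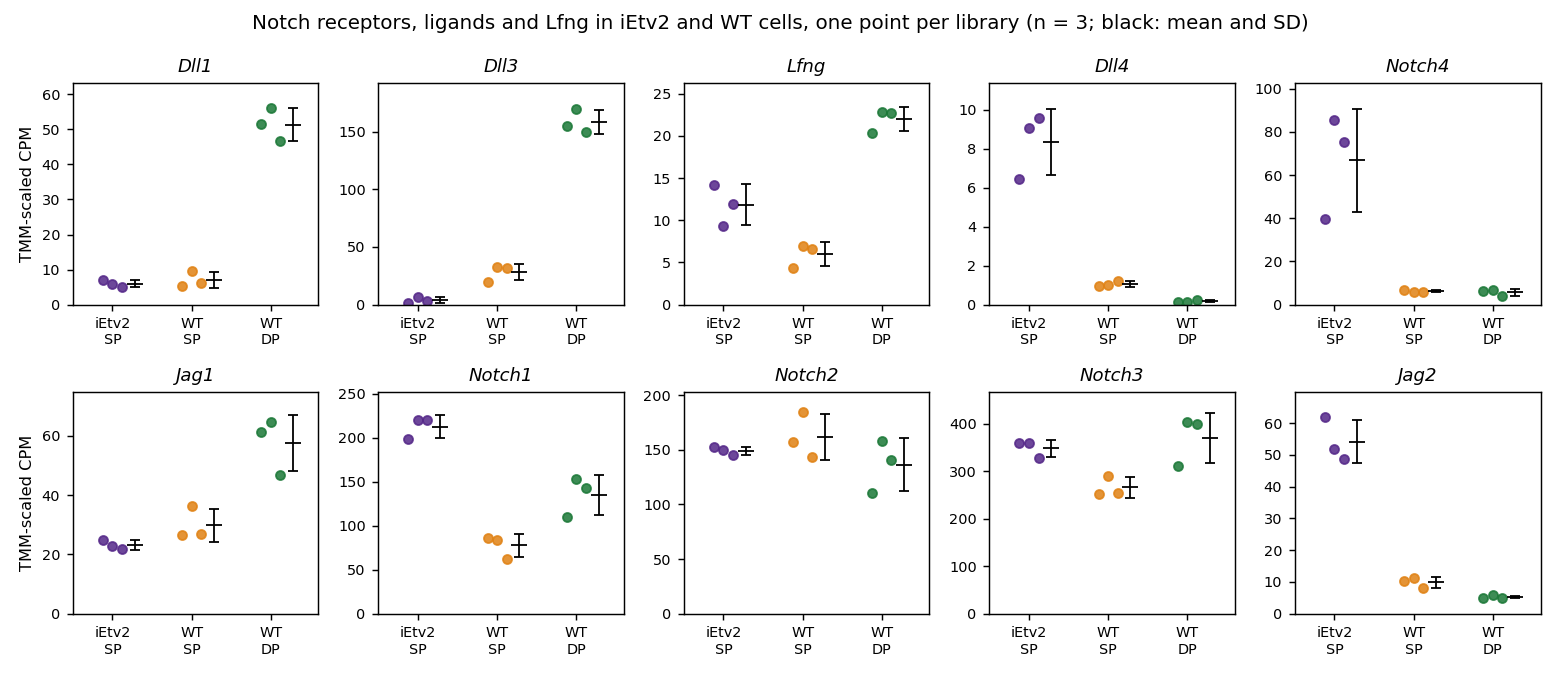
TMM-scaled CPM of the 10 genes in iEtv2 SP, WT SP and WT DP cells, 1 point per library and a black bar for the mean and SD of 3 libraries, each panel with its own axis from 0. Notch4, Dll4, Jag2 and Notch1 are highest in iEtv2 SP, and Dll1, Dll3, Jag1 and Lfng in WT DP.

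The promoters of 4 of these genes are shown because the genes moved as pairs in some comparisons and apart in others. Lfng and Dll3 fell together between WT gates and parted under induction, and Dll4 and Notch4 rose together with induced Etv2. The sequences are the RefSeq windows of GRCm38.p6, 250 bases before to 50 bases after an annotated start, 5′ to 3′ on the gene's strand. They lie at chr5:140607091-140607390 (Lfng, plus strand), chr7:28301736-28302035 (Dll3, minus strand), chr2:119325534-119325833 (Dll4, plus strand) and chr17:34564045-34564344 (Notch4, plus strand). Capitals mark matches on either strand to any of 4 short motifs.
Lfng: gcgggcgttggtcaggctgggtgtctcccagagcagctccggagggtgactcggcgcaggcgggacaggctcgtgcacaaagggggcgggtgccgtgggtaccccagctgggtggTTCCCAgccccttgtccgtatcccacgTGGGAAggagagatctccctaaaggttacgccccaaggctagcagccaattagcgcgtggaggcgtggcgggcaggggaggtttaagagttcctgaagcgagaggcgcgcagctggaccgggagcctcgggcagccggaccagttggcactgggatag
Dll3: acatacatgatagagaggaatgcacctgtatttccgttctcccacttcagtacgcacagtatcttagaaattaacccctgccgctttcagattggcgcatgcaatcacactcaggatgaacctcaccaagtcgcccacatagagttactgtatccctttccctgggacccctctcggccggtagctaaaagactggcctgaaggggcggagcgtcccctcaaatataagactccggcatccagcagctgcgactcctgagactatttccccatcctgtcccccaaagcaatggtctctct
Dll4: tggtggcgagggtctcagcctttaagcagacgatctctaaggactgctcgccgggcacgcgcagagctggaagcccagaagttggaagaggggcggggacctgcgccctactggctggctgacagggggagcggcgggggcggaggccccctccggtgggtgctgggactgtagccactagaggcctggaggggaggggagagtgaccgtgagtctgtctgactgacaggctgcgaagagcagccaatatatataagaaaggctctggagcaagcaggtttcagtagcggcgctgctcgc
Notch4: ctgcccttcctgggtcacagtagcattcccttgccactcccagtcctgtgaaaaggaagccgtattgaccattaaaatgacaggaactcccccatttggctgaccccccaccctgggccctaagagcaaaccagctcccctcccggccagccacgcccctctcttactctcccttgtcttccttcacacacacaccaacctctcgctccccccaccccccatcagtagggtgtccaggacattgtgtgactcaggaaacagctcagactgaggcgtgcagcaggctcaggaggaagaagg
The motifs were TGGGAA for RBPJ, CCGGAA for ETS factors such as Etv2, AGGTGT for T-box factors and AACAAT for Sox factors. All 10 members had at least 1 window, 11 in all, and only Lfng held a match. It had the RBPJ letters as TTCCCA at -135 to -130 and as TGGGAA at -108 to -103 from its start, without overlap with another motif. Of all 32851 promoter windows, 25.6% held the RBPJ letters, 14.9% the ETS letters, 13.7% the T-box letters and 10.7% the Sox letters. A match is a string of letters and was not tested for binding, and windows without one say nothing of the factor.

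Divided by exon length, levels can be set against one another within a library, and the make-up of the ligand pool differed widely between groups. The 5 ligands summed to 4.26 ± 0.492 CPM per kilobase in SP Etv2+ and 13.9 ± 3.63 in SP Etv2-, and to 7.48 ± 2.47 in DP Etv2+ and 52.2 ± 10.7 in DP Etv2- (SD, n = 3). By merged exon length Dll3 had the largest mean share in each of the 4 groups, with 38.7% ± 5.84 in SP Etv2+ and 59.3% ± 2.77 in SP Etv2-, and 62.6% ± 8.96 in DP Etv2+ and 72.1% ± 4.33 in DP Etv2-. Jag1 made up 34.4% ± 2.22 of the pool in SP Etv2+ and 24.1% ± 1.34 in SP Etv2-, although its own level was lower in the reporter-positive cells. Jag2 made up 20.0% ± 1.14 in SP Etv2+ and 4.87% ± 2.65 in SP Etv2-. The order in SP Etv2+ was not firm: in replicate 3, a library of high ribosomal RNA, Dll3 had 32.1% and Jag1 36.9%, and with no length correction Jag1 had 41.9%, Jag2 29.1% and Dll3 23.1%. These shares are descriptions with no test, and parts of a pool are not independent of one another.

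In iEtv2 SP the pool was about as large as in WT SP but of other make-up. The ligands summed to 16.7 ± 0.963 CPM per kilobase in iEtv2 SP and 18.4 ± 3.72 in WT SP, with overlapping ranges, against 78.4 ± 6.14 in WT DP. Jag2 was the largest part in iEtv2 SP at 46.5% ± 4.82, against 7.87% ± 2.07 in WT SP. Dll3 made up 8.26% ± 5.01 in iEtv2 SP, against 53.5% ± 5.71 in WT SP, where with no length correction Jag1 (39.4%) was above Dll3 (36.9%). The share of Dll4 was 13.1% ± 3.09 in iEtv2 SP and 1.52% ± 0.306 in WT SP. Jag1 made up 23.7% ± 1.28 in iEtv2 SP and 28.1% ± 3.18 in WT SP. Dll1 made up 8.45% ± 1.11 in iEtv2 SP and 8.98% ± 1.22 in WT SP.

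The receptor pool varied less. Notch3 was its largest part in all 7 groups, with mean shares from 53.8% in iEtv2 SP to 68.7% in DP Etv2-. The summed receptors came to 80.1 ± 3.63 CPM per kilobase in iEtv2 SP and 54.0 ± 5.06 in WT SP, without overlap. Notch4 made up 10.3% ± 3.39 of the pool in iEtv2 SP and 1.46% ± 0.200 in WT SP, and its means were 0.466% to 0.613% in the reporter line. Notch1 made up 18.7% ± 0.882 in iEtv2 SP and 10.1% ± 1.41 in WT SP. Its share depends on the length used, since its merged exons span 14232 bases and its longest transcript 9488, and with the longest transcript of each gene it was 24.9% in iEtv2 SP.

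**Figure D4:**
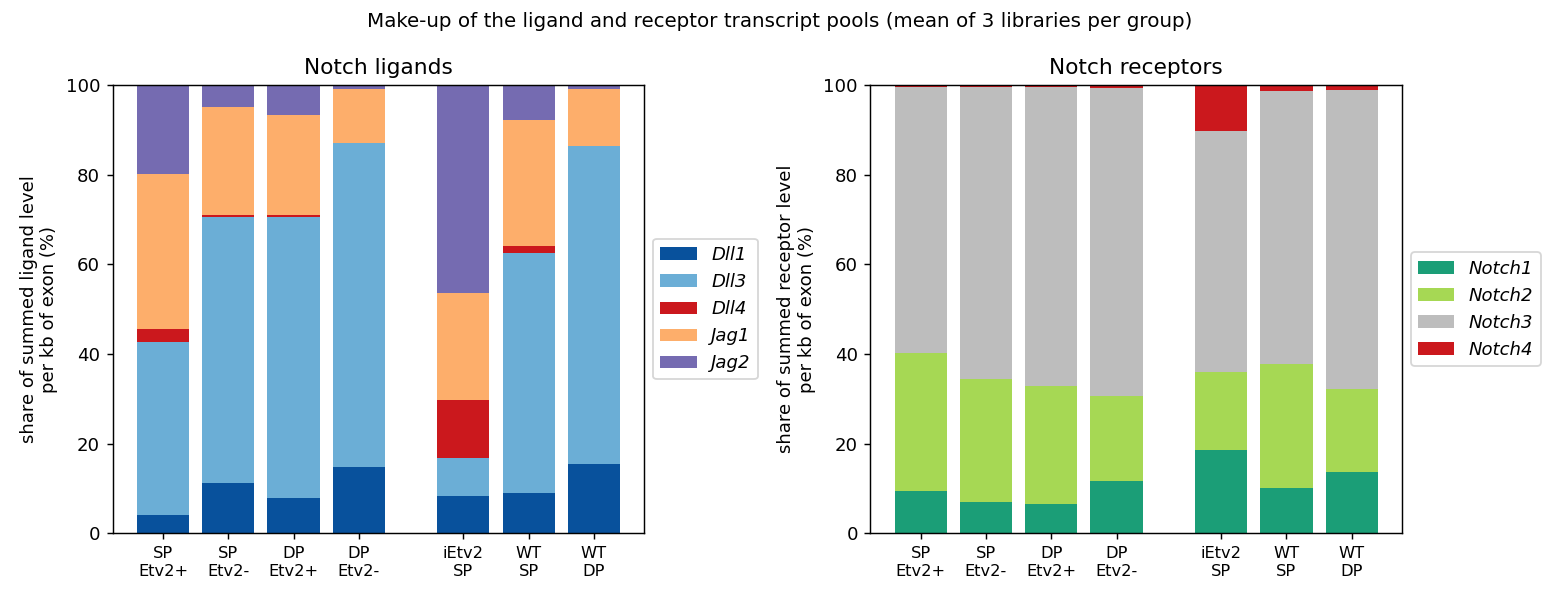
Share of each ligand (left) and each receptor (right) in the summed level per kilobase of its class, in percent, as stacked bars of the means of 3 libraries for the 7 groups; the reporter line and the second set were scaled apart. Jag2 takes the largest part of the ligands in iEtv2 SP (46.5%), and by this length measure Dll3 has the largest mean share in the other 6 groups; without length correction Jag1 is above Dll3 in SP Etv2+ and WT SP. Notch3 leads the receptors throughout.

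The rest of the pathway was described through lists of genes. All 29 genes of the signal machinery (cleavage enzymes, ligand and receptor modifiers, co-activators and regulators of turnover) were tested in both sets. With the reporter, 6 of the 29 were higher and 4 lower in DP (median -0.080), and 1 higher and 7 lower in SP (median -0.027). The shares of all genes called there were 30.7% in DP and 25.5% in SP, so the counts over both directions are near the background. Split by direction, 16% of all genes were higher and 14.7% lower in DP. In SP 13.1% were higher and 12.4% lower, so the machinery genes called there leaned to the lower side. Psen2, a catalytic part of the gamma-secretase that frees the Notch intracellular domain, was 5.66 ± 0.167 CPM in DP Etv2+ and 2.76 ± 0.135 CPM in DP Etv2- (1.03 ± 0.13, edgeR adjusted p = 0.000103). Neurl1a, a ubiquitin ligase of the Neuralized family, which in flies promotes ligand uptake, was lower with the reporter in both gates, by 0.65 ± 0.10 in DP and 0.92 ± 0.10 in SP. In iEtv2 SP over WT SP, 10 of the 29 were higher and 4 lower (median 0.12), against 50.8% of all genes called. The median over all genes lay between -0.013 and 0.0042 in every comparison. The leading one was Mfng, a Fringe enzyme like Lfng, at 20.3 CPM in iEtv2 SP and 0.951 CPM in WT SP (4.41 ± 0.32, edgeR adjusted p = 1.59e-06). The third Fringe, Rfng, was lower, at 10.4 CPM in iEtv2 SP and 16.6 CPM in WT SP (-0.67 ± 0.15). Dtx4, a Deltex protein that acts on Notch turnover, and Maml2, a Mastermind co-activator, were higher by 2.04 ± 0.22 and 1.88 ± 0.25. Between gates, 2 of the 29 were higher and 1 lower without the reporter, 2 higher and 6 lower with it, and 4 higher and 2 lower in WT, where 10.9%, 13.9% and 15.8% of all genes were called. By direction, 6.95% of all genes were called higher and 6.94% lower with the reporter. Maml2 was among the machinery genes called, lower in SP by 1.65 ± 0.27 without the reporter and by 1.40 in WT.

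Of 10 listed target genes 6 could be tested, since Hes5, Hes7, Heyl and Ripply2 did not pass the filter. They did not move one way. Mesp2, a presomitic target, fell with the reporter in DP (1.10 CPM in DP Etv2+ and 14.2 CPM in DP Etv2-, -3.71 ± 0.22) and in SP (0.372 CPM in SP Etv2+ and 2.56 CPM in SP Etv2-, -2.77 ± 0.28). Efnb2, an arterial ephrin ligand, rose in both, by 0.76 ± 0.11 in DP and 0.88 ± 0.11 in SP. Hey1 fell with the reporter in DP (22.8 CPM in DP Etv2+ and 37.7 CPM in DP Etv2-, -0.72 ± 0.12). Nrarp, a feedback inhibitor of the Notch complex, rose with the reporter in SP (7.05 ± 1.16 CPM in SP Etv2+ and 3.92 ± 0.561 CPM in SP Etv2-, 0.84 ± 0.18, edgeR adjusted p = 0.00562). Its interaction was called in the direction of Notch1 and Lfng (1.09 ± 0.26, edgeR adjusted p = 0.0371). Between gates without the reporter, Mesp2, Nrarp and Hey1 were lower in SP (-2.47, -0.74 and -0.61), and Efnb2 was higher (0.73). Under induction Nrarp rose by 1.42 ± 0.17 and Hey1 by 0.61 ± 0.15, while Hes1 fell by 0.88 ± 0.12, to 53.9 CPM in iEtv2 SP against 99.1 CPM in WT SP. Counts for the 6 tested targets were 1 higher and 2 lower with the reporter in DP (30.7% of all genes called), 2 and 1 in SP (25.5%), and 2 and 3 in iEtv2 SP over WT SP (50.8%). Across gates they were 1 and 3 without the reporter (10.9%), 1 and 1 with it (13.9%), and 2 and 1 in WT (15.8%). Their median change was -0.18 with the reporter in DP, 0.086 in SP and -0.29 in iEtv2 SP over WT SP. Of 3 noncanonical ligands, Dlk2 was not tested. Dner fell with the reporter in DP by 1.18 ± 0.30 and in SP by 1.03 ± 0.29, and Dlk1 fell under induction by 2.52 ± 0.30, to 4.37 CPM in iEtv2 SP against 25 CPM in WT SP.

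Cell type markers differed in these comparisons, though the genes of a list did not always move one way. Of all genes, 30.7% were called with the reporter in DP, 25.5% with it in SP and 50.8% in iEtv2 SP over WT SP. The summed level of 10 presomitic markers was 18.3 to 21.4 CPM in SP Etv2+ and 44.8 to 52.0 CPM in SP Etv2-, 35.0 to 42.9 CPM in DP Etv2+ and 144 to 146 CPM in DP Etv2-. It was 8.86 to 13 CPM in iEtv2 SP, 29.0 to 39.3 CPM in WT SP and 104 to 122 CPM in WT DP. Of the 8 presomitic markers tested, 1 was called higher and 6 lower with the reporter, in DP and again in SP. In iEtv2 SP over WT SP, 0 were higher and 6 lower. Ripply2 was at 0 in all DP Etv2+ libraries, and Mesp2, Ripply2 and Hes7 are also on the list of targets. Within the second set the presomitic sum was lowest in iEtv2 SP, where Lfng was higher than in WT SP. The 14 endothelial markers summed to 151 to 285 CPM in SP Etv2+ and 42.8 to 68.3 CPM in SP Etv2-, 55.3 to 78.4 CPM in DP Etv2+ and 26.2 to 36.7 CPM in DP Etv2-. They reached 1991 to 2413 CPM in iEtv2 SP, against 181 to 260 CPM in WT SP and 27.8 to 42.9 CPM in WT DP, and all 14 were called higher in iEtv2 SP than in WT SP. Among the 14, Emcn averaged 0.0534 CPM in WT SP and 4.80 CPM in iEtv2 SP, so its call rests on the group where it was high. Of the 13 endothelial markers tested in the reporter line, 6 were higher and 1 lower with the reporter in DP, and 12 higher and 0 lower in SP. Emcn was at 0 in all DP Etv2- libraries. The 10 hematopoietic markers summed to 188 to 333 CPM in SP Etv2+ and 49.7 to 59.2 CPM in SP Etv2-, 46.0 to 53.0 CPM in DP Etv2+ and 16.3 to 20.9 CPM in DP Etv2-. With the reporter, 2 of the 9 tested were higher and 0 lower in DP, and 9 higher and 0 lower in SP. They summed to 386 to 406 CPM in iEtv2 SP, 213 to 282 CPM in WT SP and 32.3 to 41.1 CPM in WT DP. Of the 8 tested there, 3 were higher and 3 lower in iEtv2 SP than in WT SP. The 7 mural and smooth muscle markers, read beside Notch3, summed to 32.1 to 40.1 CPM in iEtv2 SP and 233 to 277 CPM in WT SP, although Notch3 was higher in iEtv2 SP. They summed to 351 to 393 CPM in DP Etv2+ and 159 to 209.8 CPM in DP Etv2-, with 5 of 7 called higher and none lower, in the comparison where Notch3 and Jag1 fell. In SP Etv2+ they summed to 247 to 373 CPM and in SP Etv2- to 231 to 265 CPM. Much of the mural sum was Rgs5, with 200 ± 24.9 CPM in DP Etv2+ and 101 ± 18.5 CPM in DP Etv2-. Rgs5 averaged 3.81 CPM in iEtv2 SP and 182 CPM in WT SP, where 5 of the 7 were tested, 3 lower and 0 higher in iEtv2 SP. The 5 pluripotency markers summed to 252 to 277 CPM in iEtv2 SP and 49.1 to 81.3 CPM in WT SP, and to 34.2 to 57.0 CPM in DP Etv2+ and 139 to 197 CPM in DP Etv2-. All 5 were called higher in iEtv2 SP than in WT SP, and 2 of 5 were lower and 0 higher with the reporter in DP. The 6 cardiac markers summed to 29.1 to 55.0 CPM in iEtv2 SP and 696 to 771 CPM in WT SP. Most of the WT SP sum was Hand1 (489 ± 20.3 CPM) and Gata4 (207 ± 21.3 CPM), and all 6 were called lower in iEtv2 SP. The 6 feeder and fibroblast markers summed to 370.0 to 554 CPM in DP Etv2+ and 65.4 to 170.4 CPM in DP Etv2-. Most of that was Col1a1, with 421 ± 92.0 CPM in DP Etv2+ and 86.7 ± 57.6 CPM in DP Etv2-. Of the 4 tested, 2 were called higher and 0 lower, and Dcn and Lum were at 0 in all DP Etv2- libraries. Whether these marker differences reflect cell make-up, and their part in the members' changes, was not tested.

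Likeness of pattern was measured for the 9 members averaging at least 1 CPM in the reporter line, as the Pearson r of log2(CPM + 1) over its 12 libraries, among 9932 genes. The genes most like Dll1 were Dact1 (0.990), Gfra3 (0.989) and Tbx6 (0.989), and those most like Dll3 were Efna3, Frzb and Pcdh8 (0.991 each). Among the genes most like Lfng were Pmaip1 (0.971) and Lef1 (0.969). The closest to Jag1 were Kbtbd7 (0.982), Osbpl2 (0.982) and Ptprt (0.981). Those of Notch1 were Zfp608 (0.951), Trak1 (0.951) and Pde3b (0.943), and those of Notch4 were Btg2 (0.919), Dtd1 (0.908) and Heph (0.895). For Notch2 they were Tjp1 (0.985), Ptprf (0.959) and Sh3d19 (0.956), and for Notch3 they were Heg1 (0.964), St8sia2 (0.959) and Midn (0.938). Jag2 had the loosest neighbours, Chd1l (0.907), Leo1 (0.898) and Zfp639 (0.894). The libraries fall into 4 groups and were searched for the highest values, so these r are descriptions of likeness only.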

How the data were processed

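Total RNA libraries were made with a stranded kit from sorted cells, per the labels' protocols. For the reporter line the authors deposited 1 table of raw read counts by Ensembl identifier, and for WT and iEtv2 cells 1 such file a library. Counting with featureCounts and the build mm10 are named in the submitters' processing notes; the aligner, annotation and strand setting are not given in the sources used here. In the 9 single files, summary entries for unmapped, multimapping, unassigned and ambiguous reads were left out. The members, the gene lists and the division into presomitic and vascular members were chosen with earlier results of these data known.

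Identifiers were named from GENCODE M21. Each set was fitted apart with edgeR 4.0.16 in R 4.3.3 (TMM, filterByExpr, glmQLFit and glmQLFTest, 1 term per group, two-sided), with Benjamini-Hochberg adjustment over all genes tested; the script was tested on simulated data. Alternatives were DESeq2 1.42.0, a replicate block, RLE or upper-quartile size factors, a low-count filter left out or set at 1 CPM in 3 libraries, the compared groups alone, removal of mitochondrial and ribosomal RNA genes, and omission of each library and of both libraries rich in ribosomal RNA. Named genes were all 10 members and, from each list, up to 4 called genes of largest change averaging at least 1 CPM. For the replicate numbers, which the labels give without a shared culture or day, deviations of same-numbered libraries from their group means had correlations of 0.175 to 0.342 for the reporter in DP and 0.143 to 0.268 in SP, over 0.1 in every pair; the other comparisons did not meet this in every pair. Precision is limited by 3 libraries a group. Sequences are from RefSeq (GRCm38.p6), and all 10 symbols matched. One gene of the likeness search is not reported here.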

Additional observations from a re-analysis of the deposited data

Results flagged for a closer look

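The reporter effect of Notch1 differed between gates by 1.51 on the log2 scale (SP minus DP; interaction, edgeR adjusted p = 0.00967), with all 3 DP Etv2+ libraries below all 3 DP Etv2- libraries and all 3 SP Etv2+ libraries above all 3 SP Etv2- libraries. The reporter effect of Lfng differed between gates by 1.85 (interaction, edgeR adjusted p = 0.0336), with a fall in DP and overlapping groups in SP. SP over DP for Notch1 was -0.80 in WT cells and 0.51 in reporter-positive cells, with the groups apart in each case and in opposite directions. That last difference was not tested, since the 2 sets of libraries were scaled and fitted apart.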

How the results depend on the processing

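Over the alternatives run, 935 of 1000 values of single members kept their direction and their side of the threshold, 30 were no longer called, 23 became called and 12 changed sign, each of the last among changes that were not called. Of 108 counts of called members 94 stayed within 1.5 times. For the reporter in SP, the count was 5 with no filter and 5 with the compared groups alone, against 3. For the interaction it was 4 with no filter, 1 without both libraries of high ribosomal RNA and 1 to 2 when single libraries were left out, against 2. For SP over DP with the reporter it was 2 without both such libraries and 2 to 5 when single libraries were left out, against 4; without SP Etv2+ replicate 3 it was 2. Signs turned for Notch2 in the interaction (-0.18 to 0.067 with single libraries left out) and in iEtv2 over WT (-0.18 to 0.0028), for Jag1 in SP over DP with the reporter (-0.24 to 0.11), for Dll1 in iEtv2 over WT (-0.39 to 0.058), and for Notch4 with the reporter in SP (-0.16 to 0.23), in SP over DP in WT (-0.054 to 0.29) and in SP over DP with the reporter (-0.032 to 0.38; -0.032 also without both libraries of high ribosomal RNA). The cause of these shifts was not tested. The replicate block further made Jag1 called in iEtv2 over WT (-0.36, edgeR adjusted p = 0.021), where the numbers did not pair the libraries. Beside the blocked values already given, the block changed no other member's call. Jag1 was also called there with DESeq2 (DESeq2 adjusted p = 0.0442). In edgeR it was called with no filter (adjusted p = 0.00786), with the compared groups alone (0.0375) and without WT SP replicate 1 (0.0429). It was not called under the other alternatives.

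Over all genes, the interaction had 702 calls, but 1740 with no filter, 1537 with the block, 1269 with DESeq2, 119 without both libraries of high ribosomal RNA and 50 to 1268 with single libraries left out. SP over DP with the reporter had 2456 calls, against 1324 in the compared groups alone, 1106 without both libraries and 1342 to 2403 with single ones left out. Without the reporter it had 1936, and 787 to 2268 with single libraries left out, and in WT 2580, and 1509 to 2683. The reporter in SP had 4504 calls, and 2459 without both libraries; upper-quartile scaling gave 1800 higher and 2653 lower there, against 2314 and 2190. Depth limits Dll4, at 0 to 23 counts a library in the reporter line.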
